A study of Homo sapiens with 18 samples.

Results

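The 32 genes described here encode enzymes of cholesterol synthesis, enzymes of fatty acid synthesis and the regulators that control both. They were listed by name, as genes of these pathways. All 32 were found among the 20833 gene identifiers of the count table, and all 32 passed the filter on low counts, which kept 12262 genes. Of the 32, 19 act in the sterol pathway, 6 regulate sterol regulatory element-binding protein (SREBP) activity or carry sterol, and 7 act in fatty acid synthesis and desaturation.

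The libraries came from MEG-01 (Meg01 in the labels), a human megakaryoblastic leukemia cell line. Messenger RNA was counted in 18 libraries harvested on day 3 after lentiviral transduction. Cells with the genotype label WT, called unedited here, and cells labelled ETV6-KO, called knockout, each received an empty vector (EV), a vector carrying wild-type ETV6, or a vector carrying the ETV6 variant R369W. ETV6 belongs to the ETS family of transcription factors and represses its targets, and R369W is a change in its DNA-binding domain. Every group, the controls included, carried a lentiviral vector, and no untransduced library was analysed here. There were 3 libraries in each of the 6 groups, with the numbers 2, 3 and 4 for unedited and 1, 2 and 4 for knockout cells. The series text calls them biological replicates without saying whether a number stands for a culture or an edited clone. The p-values therefore measure the spread between these samples, or within a number where libraries were paired. This spread may in part be technical. In bulk RNA, fewer cells of a type and less RNA per cell cannot be told apart.

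Cholesterol is built from acetyl-CoA. HMG-CoA synthase acts on the way to mevalonate, a series of kinases and a decarboxylase turn mevalonate into isoprenoid units, and these are joined into squalene, which is closed to lanosterol and trimmed to cholesterol. When membrane sterol is low, the escort protein SCAP carries SREBP from the endoplasmic reticulum to the Golgi, where SREBP is cut and released as a transcription factor. INSIG proteins hold SCAP back when sterol is plentiful, and SREBP in turn raises transcription of most enzymes of the pathway and of INSIG1 itself. SREBP often acts at promoters together with NF-Y, a factor that binds CCAAT.

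Promoter sequences are shown for SREBF2, the only gene with a full match to the sterol regulatory element among the 28 with a RefSeq window. They are also shown for HMGCS1, STARD4 and IDI1, which carry the results below and were chosen after their values were seen. Each is the 250 bases before a RefSeq transcription start (GRCh38.p14), on the gene's strand, 5′ to 3′. Capitals mark matches to the sterol regulatory element, its core TCACCCCA, CCAAT (NF-Y) or GGAAGT. The last is a longer form of the ETS core GGAA, which was not searched by itself. Each motif was searched on both strands, so that CCAAT also appears as ATTGG. The windows are chr22:41832855-41833104 (plus strand) for SREBF2, chr5:43313413-43313662 (minus) for HMGCS1, chr5:111512536-111512785 (minus) for STARD4 and chr10:1056705-1056954 (minus), the most upstream window listed, for IDI1.
SREBF2: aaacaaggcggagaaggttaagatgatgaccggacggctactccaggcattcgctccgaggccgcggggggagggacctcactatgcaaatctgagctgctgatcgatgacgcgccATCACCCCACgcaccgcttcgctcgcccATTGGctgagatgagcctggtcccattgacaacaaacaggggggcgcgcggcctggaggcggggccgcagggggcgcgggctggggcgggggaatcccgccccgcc
HMGCS1: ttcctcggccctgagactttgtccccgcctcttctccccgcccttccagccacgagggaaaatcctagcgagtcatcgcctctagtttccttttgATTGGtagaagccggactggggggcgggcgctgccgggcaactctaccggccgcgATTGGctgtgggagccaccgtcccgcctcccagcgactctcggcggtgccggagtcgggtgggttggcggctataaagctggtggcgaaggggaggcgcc
STARD4: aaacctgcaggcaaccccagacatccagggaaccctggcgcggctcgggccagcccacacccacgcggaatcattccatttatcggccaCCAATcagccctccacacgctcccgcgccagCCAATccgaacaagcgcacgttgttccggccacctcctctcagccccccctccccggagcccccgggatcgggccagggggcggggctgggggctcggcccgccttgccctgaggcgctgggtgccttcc
IDI1: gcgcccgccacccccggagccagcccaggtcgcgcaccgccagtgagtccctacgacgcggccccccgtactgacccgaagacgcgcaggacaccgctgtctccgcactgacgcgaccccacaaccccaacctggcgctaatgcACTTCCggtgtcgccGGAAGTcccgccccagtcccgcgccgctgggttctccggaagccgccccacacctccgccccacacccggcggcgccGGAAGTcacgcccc

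In SREBF2 the sterol element began 134 bases before the start site, with a CCAAT match 106 bases before it. The HMGCS1 and STARD4 windows shown each held 2 CCAAT matches. Another RefSeq window of HMGCS1, chr5:43313182-43313431, held no match to any of these motifs. The IDI1 window shown, which lies upstream of the annotated gene span chr10:1039152-1049170, held 3 matches to GGAAGT. Its other 2 RefSeq windows, chr10:1048887-1049136 and chr10:1049120-1049369, held 3 and 2 CCAAT matches and no GGAAGT. RefSeq windows were matched for 28 of the 32 genes. ACAT2, SQLE, FASN and FDFT1 had no window and were not searched. Among the 28, CCAAT was found in at least 1 window of 19 genes (67.9%, against 37% of all 27305 genes with a window and 32% of all 35093 windows). The full sterol element, the run in capitals in SREBF2 that holds TCACCCCA, was found in that gene only (0.0439% of all genes and 0.0342% of all windows). Its core, which lies inside the full element, was found in SREBF2 and MVK (1.59% of all genes and 1.29% of all windows). GGAAGT was found in 4 genes, ELOVL6, FADS1, IDI1 and SCAP (14.3%, against 23% of all genes and 19.5% of all windows). A match describes letters in a window, not a bound site.

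Gene reads ran from 12577816 to 18927506 per library, so that a gene with 0 reads could reach 0.158 to 0.239 CPM, counting error only. CPM is the read count of a gene scaled by the size of its library. Of the 10 megakaryocyte markers listed, ITGA2B reached 779 to 1662 CPM and GATA1, TAL1, NFE2, FLI1 and ITGB3 were read in every library, while GP9 and GP1BB were near 0 and PF4 had 0 reads in all 18. Summed levels of T cell, B cell, fibroblast and hepatocyte markers were at most 1.04 CPM, and those of 3 epithelial markers 29.5 to 53.0 CPM. ETV6 averaged 96.3 CPM in unedited and 85.1 CPM in knockout EV libraries, and 1692 to 2541 CPM in the 4 groups given ETV6 or R369W. Gene counts cannot tell vector from cellular ETV6 and do not check the knockout label. The 6 EV libraries stood apart in the share of reads not aligned, 0.527% to 0.809% against 0.279% to 0.349% in the other 12. That difference accompanies every comparison with EV below, and its part in them was not tested.

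All 32 genes were expressed in every library. Per kilobase of exon, the highest mean levels over the 18 libraries were those of ACLY, which makes cytosolic acetyl-CoA from citrate (168 CPM per kb), and SQLE, squalene epoxidase (159 CPM per kb). FASN, fatty acid synthase, followed at 133 CPM per kb and SCD, stearoyl-CoA desaturase, at 130.5 CPM per kb. SREBF2, which encodes SREBP-2, averaged 51.4 CPM per kb and SREBF1 22.7 CPM per kb. The lowest levels were those of MVK, mevalonate kinase (3.59 CPM per kb), TM7SF2, a sterol reductase (3.15 CPM per kb), and HSD17B7, a sterol ketone reductase (0.551 CPM per kb). LBR, which has the same reductase activity as TM7SF2, averaged 36.1 CPM per kb.

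**Figure D1:**
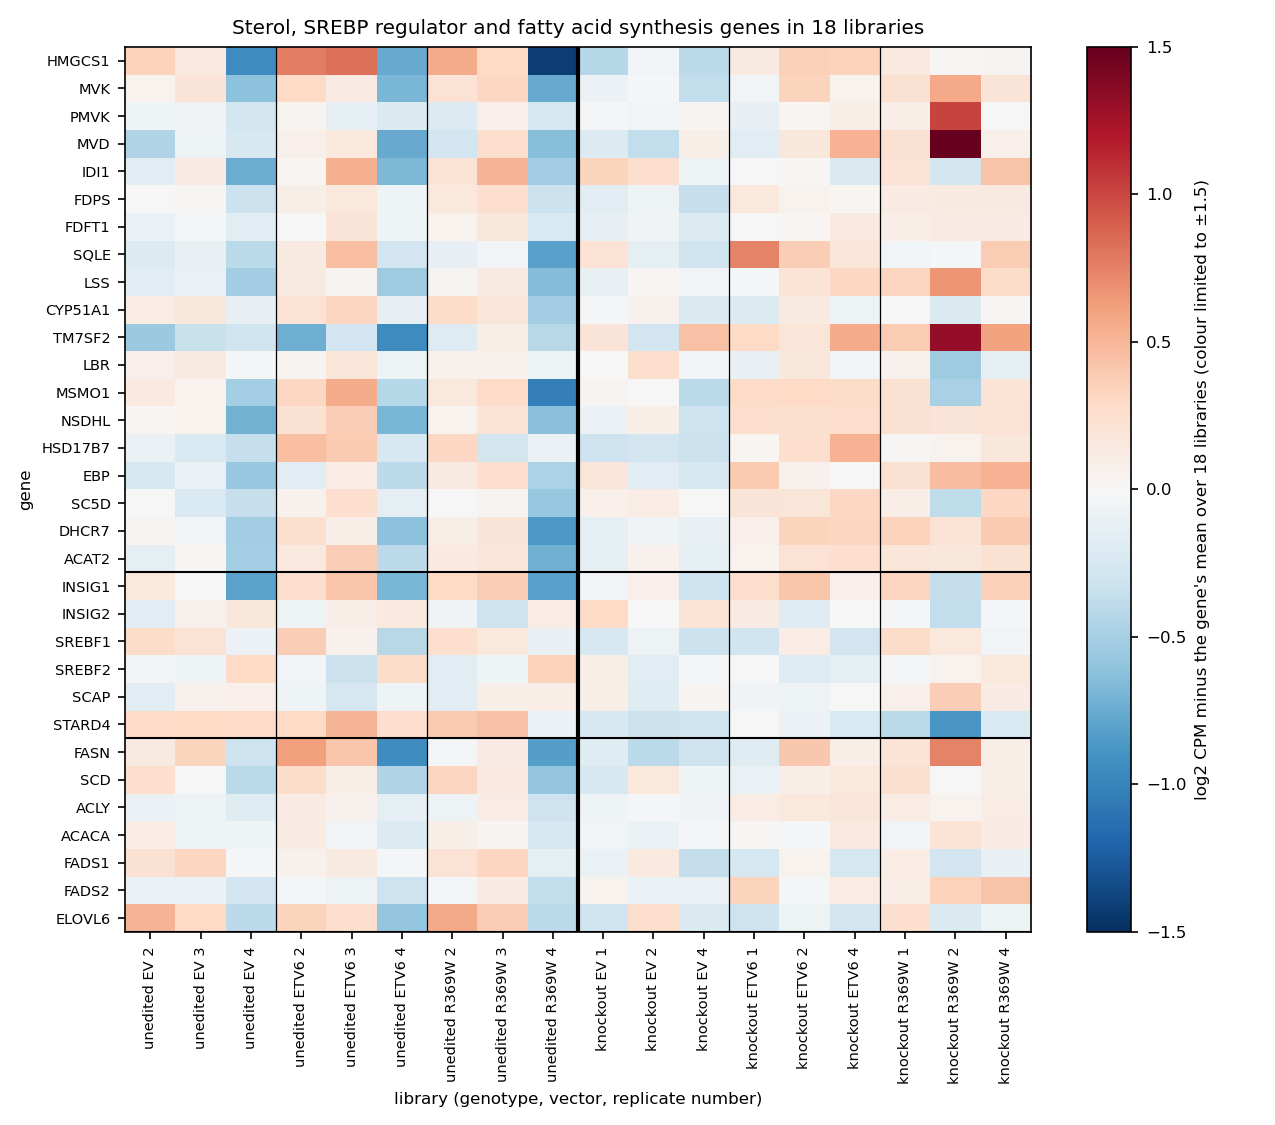
Level of each of the 32 genes (rows) in each of the 18 libraries (columns) as log2 CPM minus that gene's mean over the libraries, with colour limited to ±1.5; thin lines separate vectors and gene groups and the thick line separates the genotypes. The 3 unedited columns numbered 4 are low for most genes, and knockout R369W replicate 2 is high for MVD, TM7SF2 and PMVK.

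Within unedited cells the libraries numbered 4 had low levels of most of these genes whatever the vector. In 25 of the 32 genes the library numbered 4 was the lowest of its group with all 3 vectors, against 23.9% of all genes tested. By vector, it was the lowest for 26 genes with EV, 29 with ETV6 and 28 with R369W, against 37.4%, 37.9% and 38.7% of all genes. The median difference from the mean of the other 2 libraries was -0.28, -0.49 and -0.61 on the log2 scale. HMGCS1, HMG-CoA synthase, measured 164.8, 143.8 and 67.4 CPM in the unedited EV libraries numbered 2, 3 and 4, and 220, 229.9 and 76.8 CPM in the ETV6 libraries. With R369W it measured 190.4, 159.9 and 48.3 CPM. The library numbered 4 was thus 2.28-fold, 2.93-fold and 3.60-fold below the mean of the others. INSIG1, MSMO1 and DHCR7 differed from the others by -1.24 to -0.52 on the log2 scale. MVD, TM7SF2, HSD17B7, INSIG2, SREBF2, SCAP and ACACA were not among the 25. SREBF2 was instead higher in each library numbered 4, at 475.5, 464.6 and 491.3 CPM against 308.1 to 375.4 CPM in the other 6 unedited libraries. Of the megakaryocyte markers read in every library, ITGA2B, FLI1 and ITGB3 were highest and GATA1, TAL1 and NFE2 lowest in the library numbered 4 with each vector. Their part in the pattern was not tested. These are descriptions of single libraries, without a test.

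Same-numbered libraries deviated together in unedited cells and between EV and ETV6 in knockout cells. For those comparisons the edgeR fit was therefore also made with the replicate number as a block, which compares libraries within a number. The fit without the block gives every library equal standing and is the main design.

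Most sterol synthesis genes were higher with ETV6 than with EV in knockout cells, and the calls depended on comparing libraries within a replicate number. Without the block, edgeR's quasi-likelihood test called 0 of the 32 at an adjusted p of 0.05 (1.83% of all genes were called), and 3 passed at an unadjusted p of 0.05, all higher (12.4% of all genes passed in either direction). DESeq2 also called 0. With the block, 15 rose and 1 fell, against 10.4% and 13.5% of all genes tested. The median log2 change of the 32 was 0.19, against -0.00022 over all genes. By pathway, 11 of the 19 sterol synthesis genes, 1 of the 6 regulators and 3 of the 7 fatty acid genes rose. In all 3 same-numbered pairs, 20 of the 32 were higher and 5 were lower (26.5% and 28.6% of all genes). Without regard to pairing, all 3 ETV6 libraries lay above all 3 EV libraries for 11 genes (9.41% of all genes) and below them for 0 (11.7%).

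HMGCS1 and SQLE had the largest changes among the genes that passed. HMGCS1, at chr5:43289395-43313512, measured 96.2, 126 and 99.1 CPM in knockout EV libraries 1, 2 and 4 and 142.6, 166 and 164.8 CPM with ETV6. The 2 groups did not overlap. Their means were 107 ± 16.6 and 158 ± 13.3 CPM (SD, n = 3), and the rise with the block was 0.56 on the log2 scale (SE 0.067, edgeR adjusted p = 9.2e-05). SQLE, at chr8:124998497-125022283, measured 772, 602 and 539.7 CPM with EV and 1106, 856 and 751 CPM with ETV6. Each ETV6 library exceeded its same-numbered EV library, although the groups overlapped because replicate 1 was highest in both. The rise was 0.50 (SE 0.048, edgeR adjusted p = 1.5e-05). Both calls held when any 1 of the 6 libraries was left out. In each such fit the same-numbered partner stood alone in its block, so the change rested on the remaining pairs.

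Other genes of the pathway that passed changed by smaller amounts. DHCR7, a reductase of the last steps to cholesterol, measured 217, 233 and 224 CPM with EV and 254, 304 and 302 CPM with ETV6, without overlap. It rose by 0.35 (SE 0.055, edgeR adjusted p = 0.00081). MSMO1, a methylsterol oxidase, measured 36.5, 35.6 and 26.8 CPM with EV and 43.5, 43.6 and 42.9 CPM with ETV6, also without overlap. FDPS, farnesyl diphosphate synthase, measured 163.5, 174 and 144.5 CPM with EV and 204, 191 and 186 CPM with ETV6. The groups were again separate, and the log2 changes were 0.40 for MSMO1 and 0.27 for FDPS. NSDHL, a sterol dehydrogenase (0.35), MVD, mevalonate diphosphate decarboxylase (0.33), and ACAT2, the thiolase that starts the pathway (0.24), also rose. The remaining sterol genes that rose were EBP, a sterol isomerase (0.23), LSS, lanosterol synthase (0.20), and FDFT1, squalene synthase (0.18). HSD17B7 had the largest difference of the genes that did not pass, 0.57 (SE 0.23), with all 3 ETV6 libraries above the EV libraries at levels of 2.07 to 3.72 CPM. CYP51A1, lanosterol demethylase, and PMVK, phosphomevalonate kinase, differed by 0.0064 and 0.0099.

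INSIG1 was the regulator that rose with ETV6 in knockout cells. It measured 75.0, 81.3 and 62.4 CPM with EV and 93.1, 103 and 81.8 CPM with ETV6, a rise of 0.35 (SE 0.061, edgeR adjusted p = 0.0016). The transcription factor genes themselves did not pass: SREBF1 differed by 0.05 and SREBF2 by -0.08. SCAP differed by -0.03 and INSIG2 by -0.19. Among fatty acid genes, ACLY measured 832, 859 and 839 CPM with EV and 938.5, 974 and 988.5 CPM with ETV6, and rose by 0.20 (edgeR adjusted p = 0.011). FASN measured 1055, 906 and 966 CPM with EV and 1050, 1581 and 1279 CPM with ETV6. It rose by 0.40 (SE 0.11, edgeR adjusted p = 0.018), but replicate 1 was not higher. FADS2, a desaturase of polyunsaturated fatty acids, rose by 0.19. SCD measured 584, 771 and 658 CPM with EV and 645, 737 and 770.3 CPM with ETV6 and did not pass. Leaving out replicate 4 of either group reduced the 16 calls to 6: SQLE, HMGCS1, DHCR7, INSIG1, FASN and the fall of IDI1. Of the megakaryocyte markers, FLI1 fell by 0.66 and ITGA2B by 0.22, and ITGB3 rose by 0.74 and NFE2 by 0.19, in the same blocked fit. The summed level of the list, which follows its most expressed genes, was 2254 to 2569 CPM with EV and 2140 to 2408 CPM with ETV6. The mean log2 CPM of the 9 markers tested was instead higher with ETV6 in each pair. It was 5.13, 4.45 and 5.69 with EV and 5.22, 4.86 and 5.78 with ETV6 in libraries 1, 2 and 4. The part of the list was not tested.

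**Figure D2:**
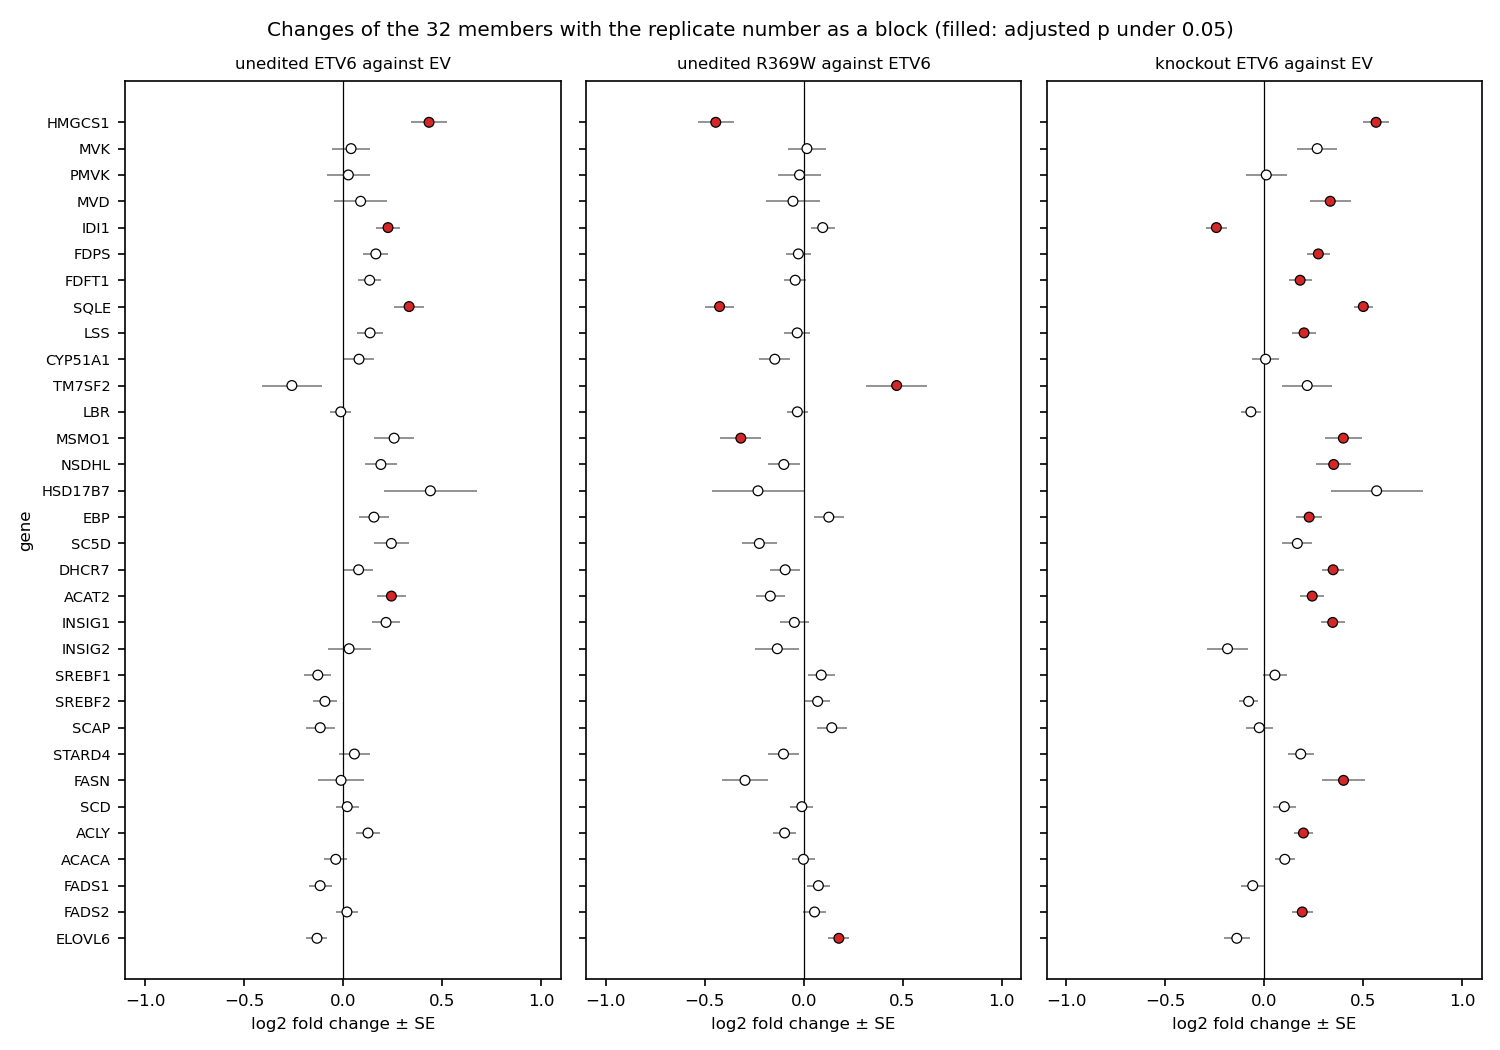
Log2 fold change ± SE of each of the 32 genes with the replicate number as a block, for ETV6 against EV in unedited cells (left), R369W against ETV6 in unedited cells (middle) and ETV6 against EV in knockout cells (right). Filled points have an edgeR adjusted p under 0.05: 4 genes on the left, 5 in the middle and 16 on the right.

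In unedited cells, ETV6 against EV gave fewer calls. Without the block 0 of the 32 were called (0.302% of all genes) and 0 passed at an unadjusted p of 0.05 by edgeR (4.58% of all genes), and DESeq2 called 0. With the block 4 rose, all in sterol synthesis, and 0 fell, against 2.75% and 5.32% of all genes. The median was 0.08, against 0.0066 over all genes. HMGCS1 rose by 0.43 (SE 0.091, edgeR adjusted p = 0.0039) and was higher with ETV6 in all 3 same-numbered pairs. SQLE measured 576, 615 and 502 CPM in EV libraries 2, 3 and 4 and 729, 903 and 544 CPM with ETV6, a rise of 0.33 (SE 0.075, edgeR adjusted p = 0.0066). Every pair moved up, though the groups overlapped through the low ETV6 library numbered 4. ACAT2 measured 116, 131 and 90.01 CPM with EV and 142, 164.5 and 97.7 CPM with ETV6, a rise of 0.24 (edgeR adjusted p = 0.039). In 13 of the 32 genes all 3 pairs were higher and in 1 all were lower (20.8% and 18.4% of all genes), and 0 had groups that did not overlap in either direction (4.15% higher and 4.69% lower over all genes). FASN showed no common direction, at 1312, 1500 and 964 CPM with EV and 1829, 1590 and 625 CPM with ETV6. SCD measured 821, 689 and 523 CPM with EV and 832, 740 and 504 CPM with ETV6. In the same fit the markers FLI1 and ITGA2B fell by 0.49 and 0.22, and the summed marker list was 2128 to 2265 CPM with EV and 1981 to 2103 CPM with ETV6. The mean log2 CPM of the 9 markers tested had no common direction over the pairs. It was 4.313, 4.526 and 5.116 with EV and 4.062, 4.465 and 5.14 with ETV6 in libraries 2, 3 and 4. The part of these markers was not tested. Without EV replicate 2, EV replicate 3 or ETV6 replicate 3 none of the 4 calls was left (0 called), and without ETV6 replicate 2 there were 9. Without the 3 libraries numbered 4 there were 8 calls, with HMGCS1 at 0.55 and SQLE at 0.45.

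IDI1, isopentenyl diphosphate isomerase, which lies at chr10:1039152-1049170, went in opposite directions in the 2 genotypes. In unedited cells it measured 155, 189 and 104 CPM with EV and 178, 250.4 and 109 CPM with ETV6, higher in all 3 pairs. It rose by 0.23 (SE 0.061, edgeR adjusted p = 0.023). In knockout cells it measured 219, 207 and 166 CPM with EV and 174, 176 and 149 CPM with ETV6, lower in all 3 pairs. There it fell by 0.24 (SE 0.055, edgeR adjusted p = 0.0075). The difference between the genotypes, tested as an interaction with pairing within genotype over the 12 EV and ETV6 libraries, was -0.47 (SE 0.091, edgeR adjusted p = 0.021), and 1.17% of all genes passed that test. Of the 32, IDI1 alone passed. That fit was added after the data were seen, and IDI1 passed in no other fit of the interaction. Without the block the interaction was -0.51 (SE 0.43, edgeR adjusted p = 1), and 0 of the 32 passed the interaction of ETV6 with genotype (0.0245% of all genes) or of R369W with genotype (0.0408%). DESeq2 called 0 of the 32 for either interaction, and at an unadjusted p of 0.05 edgeR also gave 0 for both (1.9% and 4.24% of all genes).

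**Figure D3:**
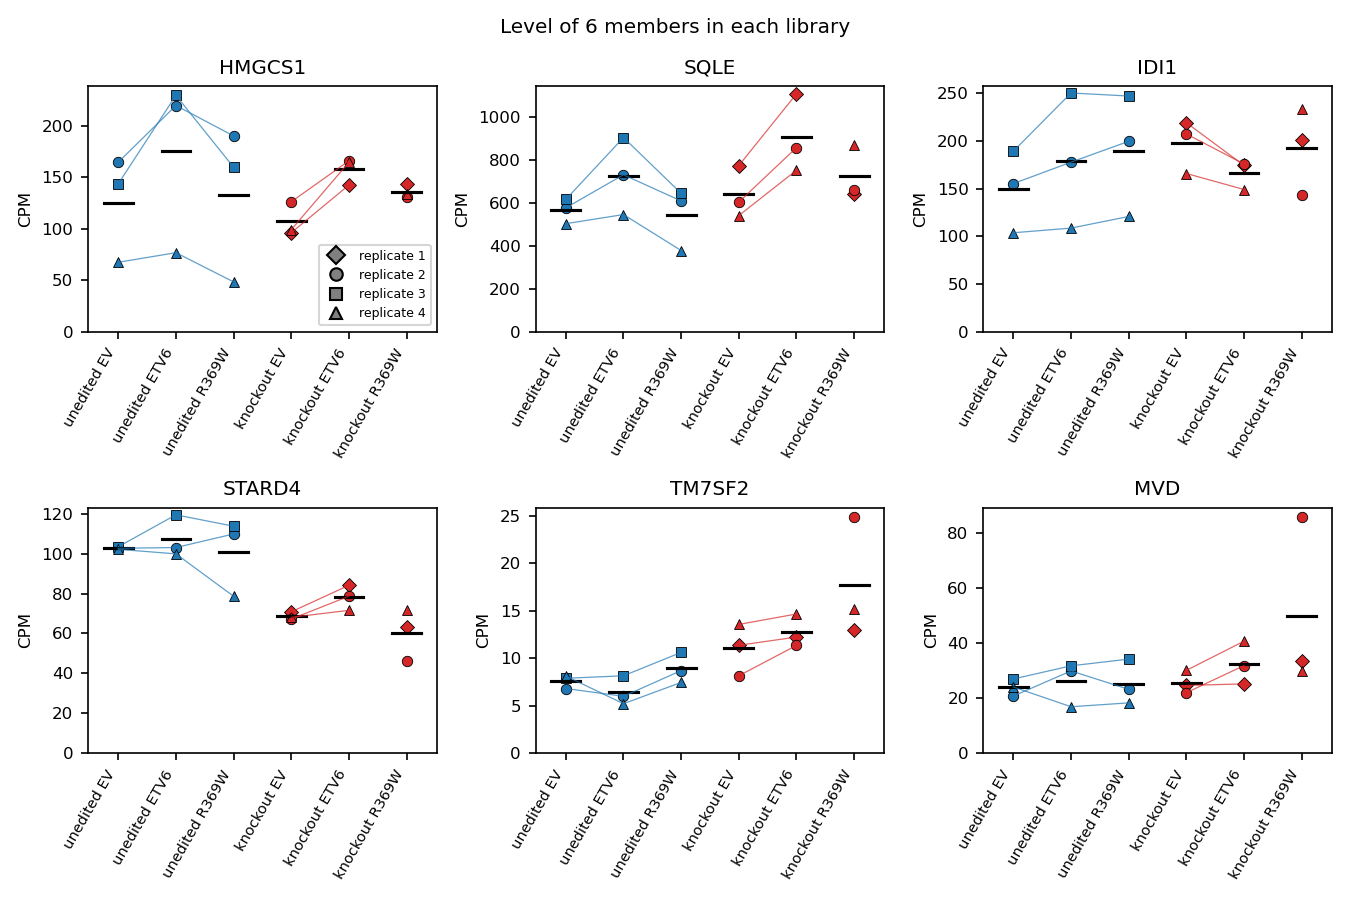
CPM of HMGCS1, SQLE, IDI1, STARD4, TM7SF2 and MVD in each library by group (blue unedited, red knockout); symbols give the replicate number, horizontal bars the group mean, and thin lines join same-numbered libraries where the numbers pair them. SQLE lines rise from EV to ETV6 in both genotypes, IDI1 lines rise in unedited and fall in knockout cells, and all knockout STARD4 points lie below all unedited points with the same vector.

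R369W against EV in unedited cells gave 0 calls without the block (0.0245% of all genes), 0 at an unadjusted p of 0.05 by edgeR (2.02% of all genes) and 0 by DESeq2. With the block 1 gene, IDI1, rose and 0 fell (2.06% and 0.383% of all genes). IDI1 measured 200, 247 and 121 CPM with R369W in libraries 2, 3 and 4. All 3 exceeded their EV partners, and the log2 change was 0.32 (SE 0.061, edgeR adjusted p = 0.0046). FLI1 rose by 0.37 in the same fit, and its part was not tested. The call was lost without EV replicate 3 and held in the other 8 fits that left out a library. HMGCS1 did not differ in 1 direction, being higher with R369W in replicates 2 and 3 and lower in replicate 4. This comparison and that of ETV6 with EV share the EV libraries.

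R369W against ETV6 in unedited cells gave 0 calls of the 32 without the block (1.2% of all genes), 0 at an unadjusted p of 0.05 by edgeR (8.99% of all genes) and 0 by DESeq2. With the block 3 fell and 2 rose, against 6.65% and 9.83% of all genes. SQLE measured 608, 643 and 377 CPM with R369W against 729, 903 and 544 CPM with ETV6, and fell by 0.42 (SE 0.075, edgeR adjusted p = 0.00038). HMGCS1 fell by 0.44 (SE 0.091, edgeR adjusted p = 0.0016). MSMO1 measured 44.0, 52.4 and 26.4 CPM with ETV6 and 39.5, 43.3 and 17.4 CPM with R369W, and fell by 0.32 (edgeR adjusted p = 0.041). Each of these 3 genes was lower with R369W in all 3 pairs. TM7SF2 measured 5.98, 8.15 and 5.20 CPM with ETV6 and 8.70, 10.6 and 7.45 CPM with R369W, and rose by 0.47 (SE 0.15, edgeR adjusted p = 0.04). ELOVL6, a fatty acid elongase, measured 246, 235 and 132 CPM with ETV6 and 291, 254 and 149.6 CPM with R369W, and rose by 0.18 (edgeR adjusted p = 0.026). Across the 32 genes, 5 were lower and 2 higher in all 3 pairs, against 23.1% and 21.9% of all genes. SQLE passed whichever library was left out, HMGCS1 in all but the fit without ETV6 replicate 3, and the number of calls ran from 2, without that library, to 6. Without the 3 libraries numbered 4, SQLE and HMGCS1 passed at -0.38 and -0.37, while MSMO1, TM7SF2 and ELOVL6 did not. FLI1 rose by 0.86 and ITGA2B by 0.24 in this blocked fit. The summed megakaryocyte list ran from 1981 to 2103 CPM with ETV6 and from 2215 to 2363 CPM with R369W. The mean log2 CPM of the 9 markers tested had no common direction over the pairs. It was 4.062, 4.465 and 5.14 with ETV6 and 4.145, 4.421 and 5.237 with R369W in libraries 2, 3 and 4. The part of the list was not tested.

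R369W against EV in knockout cells could not be compared within numbers, because the R369W libraries did not deviate together with the EV and ETV6 libraries of the same number. No gene of the set was called (0 of 32, 0.0571% of all genes), and DESeq2 called 0. At an unadjusted p of 0.05, 8 of the 32 passed by edgeR, all higher (6.56% of all genes were higher at that level): FDFT1, FADS2, EBP, TM7SF2, LSS, FDPS, PMVK and MVD. All 3 R369W libraries lay above all 3 EV libraries for 14 genes, against 8.93% of all genes. INSIG2 alone lay below, against 9.75%. The 14 held 10 sterol synthesis genes, SREBF1, FASN, ACLY and FADS2. FASN measured 1381, 2004 and 1276 CPM with R369W, a difference of 0.67 from EV (SE 0.33, edgeR adjusted p = 0.38). LSS measured 155, 171 and 162.5 CPM with EV and 209.7, 264 and 202 CPM with R369W, a difference of 0.47 (SE 0.20). The median of the 32 was 0.23, against -0.0033 over all genes.

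Knockout R369W replicate 2 stood apart in this group, over all genes as well as among the 32. It was the highest of all 18 libraries for MVK, PMVK, MVD, LSS, TM7SF2, SCAP, FASN and ACACA (8 of 32, against 17.6% of all genes). It was the lowest of all 18 for LBR, INSIG2 and STARD4 (16.4% of all genes). MVD measured 85.7 CPM in that library and 16.8 to 40.6 CPM in the other 17. PMVK measured 34.1 CPM there, and 18.1 and 17.0 CPM in the other 2 libraries of its group. ITGA2B, the megakaryocyte integrin, was also at its highest there, at 1662 CPM, and its part was not tested. Without that library, 16 genes lay above all EV libraries and 1 below, against 11.7% and 12.5% of all genes. R369W against ETV6 in knockout cells gave 0 calls (1.23% of all genes), 3 genes at an unadjusted p of 0.05 by edgeR (12.4% of all genes), 2 of them higher, and 0 calls by DESeq2. Groups did not overlap for SCAP, which was higher with R369W (8.78% of all genes), or for MSMO1 and NSDHL, which were lower (7.57%).

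**Figure D4:**
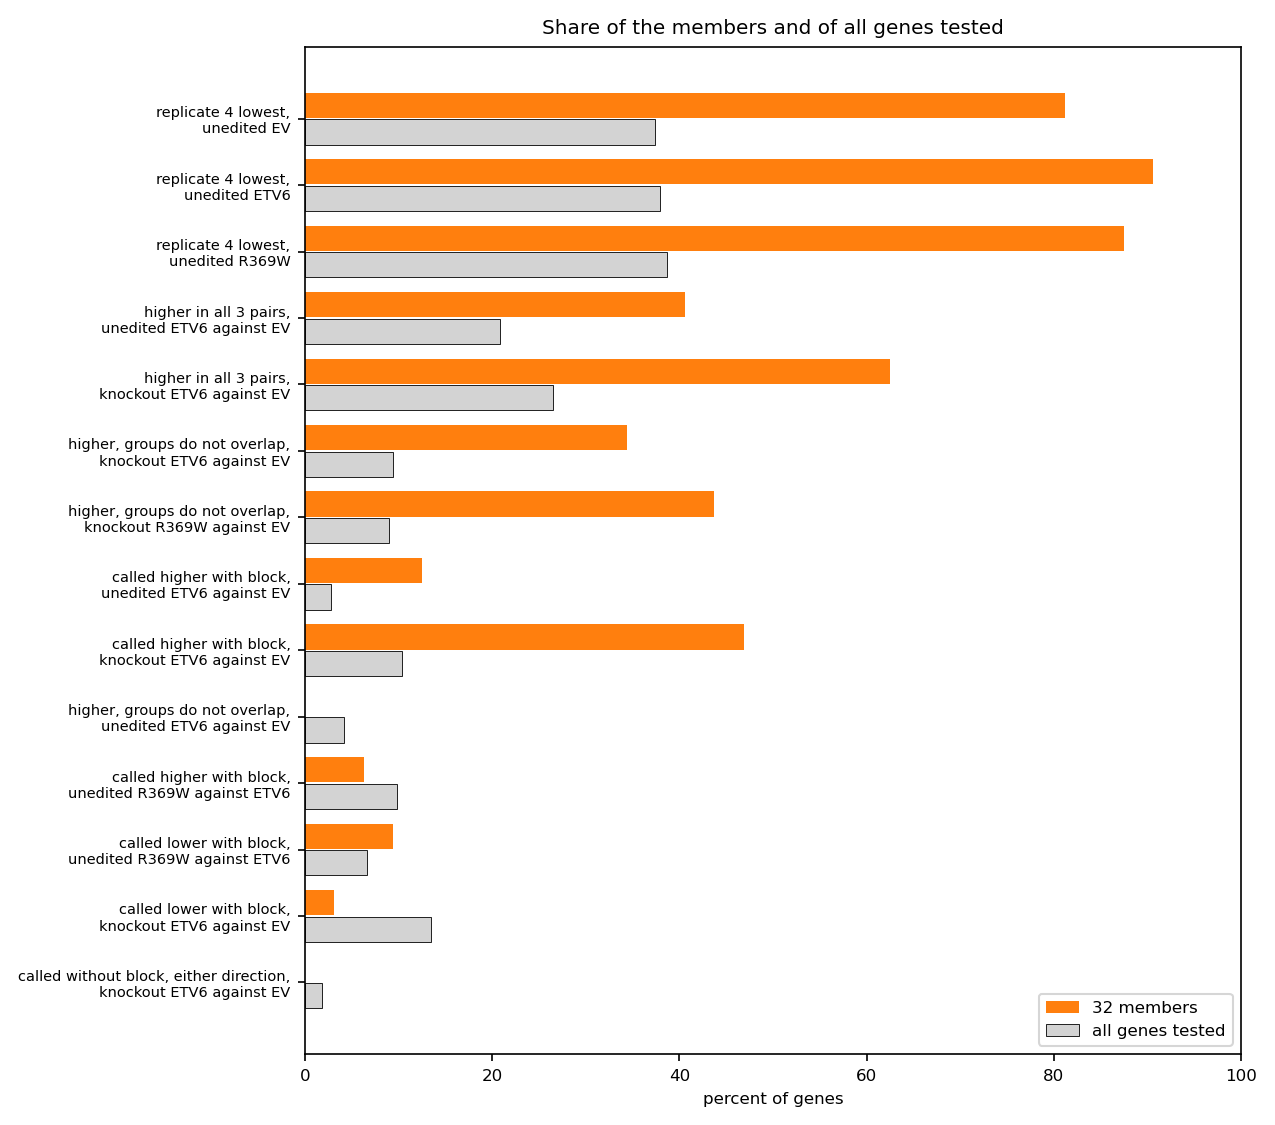
Percent of the 32 genes (orange) and of all genes tested (grey) that show each pattern named on the left; the bars start at 0. The orange bar exceeds the grey one in 10 patterns, most of all for genes lowest in the unedited ETV6 library numbered 4 (90.6% against 37.9%), and is below it in 4, among them genes called lower with ETV6 in knockout cells with the block (3.12% against 13.5%) and genes called there without the block (0 against 1.83%).

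Knockout against unedited cells, within each vector, gave few calls among the 32 genes without the block. Calls were also few over all genes, at 4.33%, 2.53% and 4.18% with EV, ETV6 and R369W. STARD4, a soluble sterol carrier of the cytosol at chr5:111496033-111512590, was lower in knockout cells with every vector. With EV it measured 103, 103.5 and 102 CPM in unedited and 70.8, 67.2 and 68.1 CPM in knockout libraries. It fell by 0.58 (SE 0.15, edgeR adjusted p = 0.041), the single call of 32 against 4.33% of all genes. With ETV6 it measured 103, 119.5 and 99.9 CPM in unedited and 84.2, 78.7 and 71.6 CPM in knockout libraries, a difference of -0.46 that did not pass (SE 0.15, edgeR adjusted p = 0.12). With R369W it measured 109.9, 114 and 78.7 CPM in unedited and 63.2, 46.0 and 71.8 CPM in knockout libraries. There it fell by 0.74 (SE 0.15, edgeR adjusted p = 0.014). The unedited and knockout libraries did not overlap with any of the 3 vectors (9.86%, 11.1% and 10.9% of all genes were lower in this way with EV, ETV6 and R369W). FLI1, a megakaryocyte marker, was also higher in knockout cells with EV, by 1.36 (edgeR adjusted p = 0.041), and GP1BB with R369W, by 3.02 (edgeR adjusted p = 0.034) at levels of 2.68 CPM or less in all 18 libraries. The summed marker list was 2128 to 2265 CPM in unedited and 2254 to 2569 CPM in knockout EV libraries, and 2215 to 2363 and 2438 to 2990 CPM with R369W. The part of these markers was not tested. The EV call was lost whichever of the 6 libraries was left out, with the change at -0.60 to -0.57 and adjusted p up to 0.14. The R369W call was lost without unedited R369W replicate 2 or 3 or knockout R369W replicate 2.

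TM7SF2, at chr11:65111845-65116384, was higher in knockout cells. With R369W it measured 8.70, 10.6 and 7.45 CPM in unedited and 13.0, 24.9 and 15.2 CPM in knockout libraries. It rose by 0.99 (SE 0.25, edgeR adjusted p = 0.041), and with STARD4 it made 2 calls of 32, against 4.18% of all genes. The call held in 1 of the 6 fits that left out a library, and the change was 0.66 without knockout R369W replicate 2. It was also lost without the count filter and without the 3 unedited libraries numbered 4, with edgeR adjusted p = 0.054 and 0.13. With ETV6 the levels were 12.2, 11.3 and 14.7 CPM in knockout libraries, against 5.20 to 8.15 CPM in unedited ones. That difference was 0.98 (SE 0.26) and did not pass in edgeR (adjusted p = 0.058), leaving 0 of 32 called with ETV6 (2.53% of all genes, and 3 of 32 at an unadjusted p of 0.05, against 17.7%), although DESeq2 called TM7SF2. With EV it measured 6.80, 7.88 and 8.12 CPM in unedited and 11.4, 8.15 and 13.6 CPM in knockout libraries, a difference of 0.54 that did not pass. HMGCS1 did not pass with EV in the fit of all libraries. It was called without the 3 unedited libraries numbered 4, where it fell by 0.53 in knockout cells (SE 0.13, edgeR adjusted p = 0.037; 3.82% of all genes were called in that fit).

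Among the regulators, STARD4 and INSIG1 are described above. SREBF2 averaged 406 ± 60.6, 383 ± 78.6 and 401 ± 78.8 CPM (SD, n = 3) in unedited cells with EV, ETV6 and R369W, and 378 ± 33.4, 358 ± 24.4 and 403 ± 24.6 CPM in knockout cells. SREBF1 averaged 199 ± 26.4, 185 ± 49.1 and 194 ± 25.03 CPM in unedited cells and 156 ± 13.9, 163 ± 27.6 and 198 ± 21.1 CPM in knockout cells. Its knockout R369W libraries, at 217, 201.5 and 175 CPM, lay above the knockout EV libraries, at 153, 171 and 144 CPM. SCAP stayed between 71.3 and 109.5 CPM over the 18 libraries, and INSIG2 between 12.1 and 19.3 CPM. INSIG1 ranged more widely, from 43.8 CPM in an unedited R369W library to 103.5 CPM in an unedited ETV6 library. With all libraries in the fit, neither SREBF1, SREBF2, SCAP nor INSIG2 passed in any comparison without the block, or with it where the numbers pair the libraries. With unedited ETV6 replicate 2 left out of the blocked fit, SREBF1 and SCAP passed for ETV6 against EV and for R369W against ETV6 in unedited cells.

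Genes of neighbouring lipid pathways were taken from lists written from textbook knowledge. For ETV6 against EV in knockout cells with the block, 10.4% of all genes tested rose and 13.5% fell, and the counts of these lists of 12 to 24 genes were not tested against those shares. Of 24 further lipogenic and SREBP target genes tested, 5 rose and 1 fell with ETV6 in knockout cells with the block. Among those that rose were CYB5R3, a reductase that supplies electrons for fatty acid desaturation (0.23), and FABP5, a fatty acid-binding protein (0.21). Of 19 genes of sterol uptake and transport, 4 rose, among them NPC1, which moves cholesterol out of lysosomes (0.30), and 4 fell, among them VLDLR (-1.14) and LRP8 (-0.43). Of 21 fatty acid oxidation genes, 0 rose and 4 fell, among them CPT1A, the carnitine palmitoyltransferase that admits fatty acids to mitochondria, by 0.44, ECI2 by 0.39 and ACADM by 0.29. In unedited cells CPT1A fell by 0.27 with ETV6, and it was higher with R369W than with ETV6 by 0.49 with the block. In knockout cells it was higher with R369W than with ETV6 by 0.53 without the block (edgeR adjusted p = 0.048), at 399, 355.5 and 370.4 CPM against 277, 259 and 244 CPM. Of 13 genes of SREBP processing and related protein degradation, 1 rose and 1 fell with ETV6 in knockout cells with the block. The fall was that of SPRING1, needed to mature the protease that cuts SREBP. SPRING1 measured 56.0, 53.2 and 63.5 CPM with EV and 36.8, 43.0 and 39.5 CPM with ETV6, without overlap, and fell by 0.53 (edgeR adjusted p = 0.00074). Against unedited EV libraries, at 32.7, 37.2 and 29.2 CPM, knockout EV libraries were higher in SPRING1 by 0.80 without the block (SE 0.13, edgeR adjusted p = 0.0027). LIPA, the lysosomal acid lipase, was higher in knockout EV cells by 0.99 and in knockout R369W cells by 0.76. PNPLA3, a lipase of lipid droplets at 0.621 to 5.51 CPM, was higher in knockout cells by 1.46, 1.67 and 2.02 with EV, ETV6 and R369W. Of 12 genes of the non-sterol isoprenoid branch, 0 rose and 2, PDSS2 and FNTA, fell with ETV6 in knockout cells with the block.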

How the data were processed

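Per the labels, RNA was extracted with TRIzol and TruSeq stranded mRNA libraries were sequenced. The authors deposited raw counts, whole reads per gene, and the submitters' processing notes name HISAT2, SAMtools, HTSeq and GRCh38. Annotation and strand setting: not given in the sources used here, so overlapping, antisense or near-identical genes may share reads. The 5 entries for reads given to no gene (34.4% to 41.6% of a library) and a second file of totals were left out. The 32 genes and the lists were chosen with earlier results of these data known.

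Counts were tested with edgeR 4.0.16 (R 4.3.3) after filterByExpr and TMM, with 1 mean per group over 18 libraries, a two-sided quasi-likelihood F test and Benjamini-Hochberg adjustment over 12262 genes at 0.05. SE is the log2 change divided by the square root of F. An exact permutation of 3 libraries against 3 reaches p = 0.1 at best and was not used. Values per library are given for genes past the threshold without the block, up to 8 per comparison with it, and the regulators, HMGCS1, FASN and SCD. At most 4 are named per neighbouring list and comparison, and some are not reported here. The tests were first tried on simulated data. Lengths and positions come from GENCODE release 29.

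Pairing was checked by correlating deviations from group means across genes. The same number gave 0.695 to 0.856 in unedited cells (other numbers -0.583 to 0.0424) and 0.763 to 0.847 between knockout EV and ETV6 (others -0.619 to -0.133), so the block was fitted there, over 9 and 6 libraries. For knockout R369W the same number gave -0.581 to -0.153 and other numbers up to 0.872. Alternatives were RLE size factors, no filter, DESeq2 1.42.0, the block and each library left out.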

Additional observations from a re-analysis of the deposited data

Results flagged for a closer look

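IDI1 was flagged because ETV6 against EV moved it up in every same-numbered pair of unedited cells and down in every pair of knockout cells. The difference between the 2 genotypes was -0.47 on the log2 scale with pairing within genotype over 12 libraries (edgeR adjusted p = 0.021). That fit was added after the data were seen. IDI1 passed in no other fit of this interaction, the block over all 18 libraries included. The adjusted p was 0.9999 or higher in each of them, by edgeR or DESeq2.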

How the results depend on the processing

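No gene of the 32 that passed in a comparison, without the block or with it where the numbers pair the libraries, reversed its direction in any alternative run for that change. The main counts over all genes, without the block, were 37, 3 and 147 in unedited cells (ETV6 against EV, R369W against EV, R369W against ETV6), 224, 7 and 151 in knockout cells, 531, 310 and 513 for knockout against unedited with EV, ETV6 and R369W, and 3 and 5 for the interactions of ETV6 and R369W. With the replicate block they were 989, 299 and 2021, then 2933, 0 and 63, then 979, 1002 and 1591. The block called 4, 1 and 5 of the 32 genes in unedited cells and 16 for ETV6 against EV in knockout cells. It called 1 and 8 of the 32 for knockout against unedited with ETV6 and R369W, where the numbers do not pair the libraries (same-numbered libraries correlated at -0.346 to 0.467 across genotypes), and moved no other count of the 32. All genes called without the block in the 4 paired comparisons (37, 3, 147 and 224) were also called with it. With the block within genotype, a fit added after the data were seen, the interaction of ETV6 called 1 of the 32 and 143 genes.

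DESeq2 called 85, 14 and 287 genes in unedited cells, 403, 177 and 343 in knockout cells, 892, 731 and 983 for knockout against unedited, and 12 and 13 for the interactions, and 1 of the 32 with ETV6 between genotypes. Without the 3 unedited libraries numbered 4, chosen after seeing the data, 23 genes were called for ETV6 against EV in unedited cells and 328 between genotypes with R369W; of the 32, 2 were called between genotypes with EV and 1 with R369W, and 8, 2 and 3 in the blocked unedited comparisons. Without the count filter 1 of the 32 was called between genotypes with R369W. RLE size factors moved no count of the 32.

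Leaving out 1 library gave 11 to 41, 2 to 6 and 93 to 132 genes in unedited cells, 136 to 161, 3 to 11 and 91 to 134 in knockout cells, 255 to 577, 115 to 323 and 138 to 884 between genotypes, and 0 to 6 for the interaction of R369W. Of the 32, it gave 0 in every fit between genotypes with EV and 0 to 2 with R369W. In blocked fits it gave 0 to 9, 0 to 3 and 2 to 6 in unedited and 6 to 16 in knockout cells. The median of the 32 ran from 0.20 to 0.29 for R369W against EV and from 0.021 to 0.10 for R369W against ETV6 in knockout cells. Where the cause of a change is not the smaller number of libraries or genes, the cause was not tested. Fewer than 4 CPM were read for HSD17B7 in every library, which limits its precision.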

Other observations

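In deviations from the group mean across all genes, knockout R369W replicate 2 correlated with knockout EV replicate 4 at 0.787 and with knockout ETV6 replicate 4 at 0.743. With the same-numbered EV and ETV6 libraries it correlated at -0.581 and -0.53. The other knockout R369W libraries also correlated best with another number. R369W replicate 1 correlated with knockout EV and ETV6 replicate 2 at 0.872 and 0.828. R369W replicate 4 correlated with knockout EV and ETV6 replicate 1 at 0.7555 and 0.739. These are correlations across genes, which are not independent replicates. No source used here says what the numbers stand for, and no library was regrouped.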
